A study of Mus musculus with 3 samples.

Results

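Krüppel-like factors were examined in sorted endothelial cells of the embryonic kidney of the mouse at E15.5. The 10 genes described, Klf2, Klf3, Klf4, Klf5, Klf6, Klf7, Klf9, Klf10, Klf12 and Klf13, were taken from a list of names, and each was found through the probe sets whose platform annotation gives exactly 1 gene symbol, equal to that name. All 10 were measured, each by 1 probe set, of 19938 genes named in this way. The cells came from CD-1 embryos at 15.5 days post coitum (Theiler stage 23) that carry Tg(TIE2GFP)287Sato, a transgene in which the Tek (Tie2) promoter, active in endothelial and some blood cells, drives GFP. After trypsin digestion of the kidneys, GFP-positive cells were sorted by FACS, and the RNA of each pool of 4 to 5 kidneys was amplified and hybridized to 1 Affymetrix Mouse Gene ST array. There are 3 arrays, replicates 1 to 3 of a single group, with no control group. Whether the pools are of different litters is not said in the labels, and the p-values therefore reflect no more than the spread among these arrays.

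Krüppel-like factors are transcription factors with zinc fingers at the carboxy terminus that bind CACCC and related GC-rich sequences in promoters. Their amino-terminal parts differ and decide whether a member activates its targets or represses them through corepressors such as CtBP and Sin3. In endothelium the best known member is Klf2, which laminar blood flow induces through the kinases MEKK3, MEK5 and ERK5 and the MEF2 factors, and which keeps vessels quiescent and resistant to clotting, a role it shares with Klf4.

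Values are deposited log2 signals, and a level can be set against the low-signal filter of the study, 100 on the raw scale or 6.64 on the log2 scale. Each probe set's mean was set against that level with limma, one-sided in each direction, and the adjusted p-values quoted are Benjamini-Hochberg values over all 35557 probe sets, with calls made at 0.05. Of the 10 genes, 6 lay above the level (Klf2, Klf5, Klf6, Klf7, Klf9 and Klf10), beside 35.5% of all probe sets and 41.6% of named genes. None was called below it by limma, at the adjusted threshold or at an unadjusted p of 0.05, beside 41.7% of probe sets and 41.6% of named genes called below. The other 4 (Klf3, Klf4, Klf12 and Klf13) were on neither side. A raw signal of at least 100 in all 3 arrays, after the study's rule of 100 in 3 samples of any of its cell types, was met by 8 of the 10 genes, beside 42.0% of probe sets, and Klf12 and Klf13 missed it. The median level of the 10 genes was 7.14, with a range of 6.46 to 9.08, and the median was 6.67 over named genes and 6.51 over all probe sets. Signals of different probe sets depend on their affinity, so no single gene's level is set against that of another. The same limit bears on each call against the level and on these medians.

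Many probe sets of this table hold exactly the same value in several arrays: 19.7% were equal in all 3 arrays and 55.9% in at least 2. Among the Krüppel-like factors 3 were equal in all arrays (Klf5, Klf9 and Klf10) and 8 in at least 2, with Klf3 and Klf12 the exceptions. A limma call for a gene equal in all arrays rests on a spread of 0. For Klf2, Klf4, Klf6, Klf7 and Klf13, equal in 2 arrays, the SD and interval rest on the 1 array that differs. What made values equal was not tested. Every gene was therefore also tested with 1 common spread, pooled over the whole table (SD 0.49, 95% half-width 0.56). With the pooled spread 4 genes lay above the level (Klf2, Klf3, Klf6 and Klf7), beside 34.0% of probe sets, and none was called below, beside 38.7%, also at an unadjusted p of 0.05. Klf2, Klf6 and Klf7 were above the level in both tests. The pooled spread is not free of the equal values, since probe sets equal in all 3 arrays enter it with a spread of 0 and lower it. Where the 3 values of a probe set differed, the median SD was 0.43, beside 0.19 for the whole table. The pooled test also takes the probe sets as independent although they share the same 3 arrays. For both reasons its p-values can be too small.

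**Figure D1:**
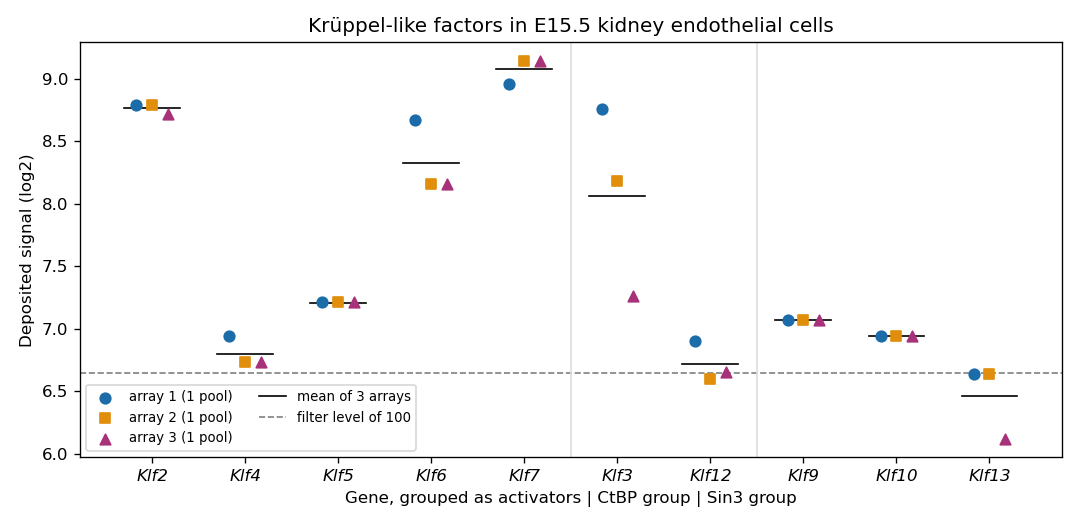
Deposited log2 signal (y axis) of the 10 Krüppel-like factors (x axis), 1 point per array, with the mean of 3 arrays as a bar and the filter level of 100 as a dashed line. Klf2, Klf6 and Klf7 lie well over the line in every array, Klf5, Klf9 and Klf10 sit at a single value, and Klf3 spreads over 1.51 log2 units.

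The labelled cell type was checked against its markers. Of 10 endothelial markers 9 lay above the level, Pecam1, Cdh5, Kdr and Tek among them, beside 41.6% of named genes. Esam was on neither side (8.40, 8.26 and 6.77). The Tek promoter drives the GFP of the sort, so the call of Tek is not independent of the sort. All 10 endothelial markers were lowest in array 3, with list means of 10.36, 10.16 and 9.28 in arrays 1, 2 and 3. The 14 macrophage markers had list means of 6.44, 7.37 and 7.88, and 13 of them were lowest in array 1 and 11 highest in array 3. Of these, Cx3cr1 (7.48, 7.97 and 8.36) was above the level, Itgam (4.78, 4.78 and 5.06) below it and 12 on neither side, among them Csf1r (6.45, 6.98 and 7.41) and Adgre1 (5.62, 6.74 and 6.42), while with the pooled spread 7 were above and 2 below. Arrays 1 and 2 correlated at r = 0.976 over all probe sets, array 3 with them at 0.923 and 0.927, and of probe sets with a mean of at least 100, 48.6% were lowest in array 3 alone. Array 3 also had the narrowest range of signals, with an SD over all probe sets of 1.84, beside 2.08 and 2.06 in arrays 1 and 2. The part of this narrower range in the values low or high in array 3 was not tested. In bulk samples of this kind, fewer cells of a type and less RNA per cell cannot be told apart.

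Markers of other cells were mixed, and their counts stand beside 41.6% of named genes above the level and 41.6% below. With the pooled spread 34.0% of all probe sets were above and 38.7% below. Of 7 erythroid genes 4 were above, Hbb-y and Hba-x among them, and 2 below (Hbb-bh1 and Gata1), with Alas2 on neither side (2 above and 1 below with the pooled spread). Of 4 platelet genes Pf4 was above (9.27, 9.34 and 10.63), Gp9 and Ppbp below and Itga2b on neither side (1 above and 3 on neither side with the pooled spread). Of 5 lymphoid genes 4 were below in both tests, Cd3g and Cd4 among them, and Cd3e (6.62, 6.62 and 6.87) was on neither side. These lists mark blood cells, and the lists that follow mark other parts of the kidney. Of 10 stromal and mural genes 5 were above, Foxd1 (7.46, 7.68 and 8.48) among them, and 4 below, Pdgfrb and Tagln among them, with Pdgfra on neither side (2 above and 3 below with the pooled spread). Of 8 nephron progenitor genes 4 were above, Six2 and Cited1 among them, and 2 below (Eya1 and Osr1), with Itga8 on neither side (4 above and 1 below with the pooled spread). Of 10 ureteric bud genes Wnt9b and Cdh1 were above and 6 below, Ret among them, with Wnt11 on neither side (3 below and 7 on neither side with the pooled spread). Of 3 podocyte genes Podxl was above, Synpo below and Nphs1 on neither side, in both tests.

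Klf2, the flow-induced factor of quiescent endothelium, stood at 8.79, 8.79 and 8.72 in arrays 1, 2 and 3. Arrays 1 and 2 were equal, and array 3, where all endothelial markers were lowest, was lower by 0.07 log2 units. Klf2 averaged 8.77 ± 0.04 (SD, n = 3), 4.36 times the filter level, with a limma 95% interval of 8.69 to 8.85 and an adjusted p of 0.000126. It kept its call with the pooled spread (adjusted p = 2.68e-13) and without any single array. Without array 3 the values left are equal, so that call rests on no spread between arrays.

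The Klf2 promoter is shown because it holds, beside the KLF motif, the motif of the MEF2 factors that act on this gene. The line gives the 250 bases before the annotated start, 5′ to 3′, chr8:72318812-72319061 of GRCm38.p6 (RefSeq), plus strand. Capitals mark a match to CTANNNNTAG, a loose form of the MEF2 motif with N as any base, which begins at position -118 from the start. They also mark a match to the KLF motif CACCC on the minus strand, read here as GGGTG, at position -19.
Klf2: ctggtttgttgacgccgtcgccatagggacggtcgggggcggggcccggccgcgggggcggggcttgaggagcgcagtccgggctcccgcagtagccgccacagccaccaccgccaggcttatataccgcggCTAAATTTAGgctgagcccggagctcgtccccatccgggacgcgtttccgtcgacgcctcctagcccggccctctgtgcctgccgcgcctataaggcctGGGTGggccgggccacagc
The pattern CTANNNNTAG was searched on both strands of 300-base windows (250 bases before to 50 after each start). It was found in 3.69% of 32851 windows, a share of the loose pattern, since its middle bases are free. The Klf2 window was the only one with it among the 8 Krüppel-like factors that have an entry (Klf5 and Klf10 have none). A match is a run of letters and no measure of binding.

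Klf4, which shares targets with Klf2 in endothelium and is better known as a factor of epithelial differentiation and of reprogramming, stood at 6.94, 6.73 and 6.73. All arrays lay just over the filter level, array 1 highest, and the mean was 6.80 ± 0.12 (SD, n = 3), 1.11 times the level. Klf4 was on neither side of it (limma, adjusted p = 0.141; 0.674 with the pooled spread), but was called above without array 1 (adjusted p = 0.0482), where the other two values are equal. The interval of 6.56 to 7.04 takes in the level.

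Klf5, a factor of gut epithelium and of smooth muscle remodeling, had the same value of 7.21 in every array. This is 1.48 times the filter level, and the limma adjusted p of 6.12e-05 rests on a spread of 0. With the pooled spread the adjusted p was 0.0671 and the call was lost.

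Klf6, which is induced on vascular injury and activates the endoglin gene, stood at 8.67, 8.16 and 8.16. Array 1 was higher than the other two, which were equal, and the lowest value was still over the filter level. The mean was 8.33 ± 0.29 (SD, n = 3), 3.22 times the level, with an interval of 7.76 to 8.89 and a limma adjusted p of 0.00821 (8.24e-09 with the pooled spread). Leaving out array 2 or array 3, which then leaves 2 unequal values, ended the call (adjusted p = 0.0706 and 0.102).

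Klf7, known for its part in axon growth of sensory neurons, stood at 8.96, 9.14 and 9.14. It was the one Krüppel-like factor of the 10 that was lowest in array 1 alone. Klf7 averaged 9.08 ± 0.10 (SD, n = 3), 5.41 times the level, with an interval of 8.88 to 9.28 and a limma adjusted p of 0.000553 (4.13e-17 with the pooled spread). The call held without any single array, though without array 1 the values left are equal and show no spread.

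Klf3 and Klf12 belong to the members that repress through CtBP. Klf3, a repressor in fat, blood and other tissues, stood at 8.76, 8.18 and 7.26 in arrays 1, 2 and 3. All values were over the filter level, array 1 was highest, and array 3 lay 1.51 log2 units under it. This spread (SD 0.76) was larger than that of 89.1% of probe sets, where the median SD was 0.19. The mean was 8.07, 2.68 times the level, yet the interval of 6.60 to 9.53 reached the level and limma gave no call (adjusted p = 0.0715). With the pooled spread, whose SD of 0.49 is smaller than that of Klf3, the gene was above (adjusted p = 1.33e-06). By limma it was also above after quantile normalization (adjusted p = 0.0239) or with arrays shifted to a common median (0.0473).

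The array in which Klf3 was lowest is the one in which all 10 endothelial markers were lowest and 11 of 14 macrophage markers highest. Their part in the spread of Klf3 was not tested. Among 1806 named genes whose arrays spanned at least 1 log2 unit, the Krüppel-like factors left out, the departures of Klf3 from its own mean were most like those of Septin11 (10.42, 9.85 and 8.91; root mean square difference 0.004), Mef2c (9.90, 9.33 and 8.38; 0.011) and Ctcf (9.79, 9.22 and 8.27; 0.011). These are 3 values per gene. The likeness is a common one, since 81 of the 1806 genes lay within 0.1 of Klf3 in every array and 870 had their highest value in array 1 and their lowest in array 3. Klf3 was the only one of the 10 genes that spanned 1 log2 unit.

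**Figure D2:**
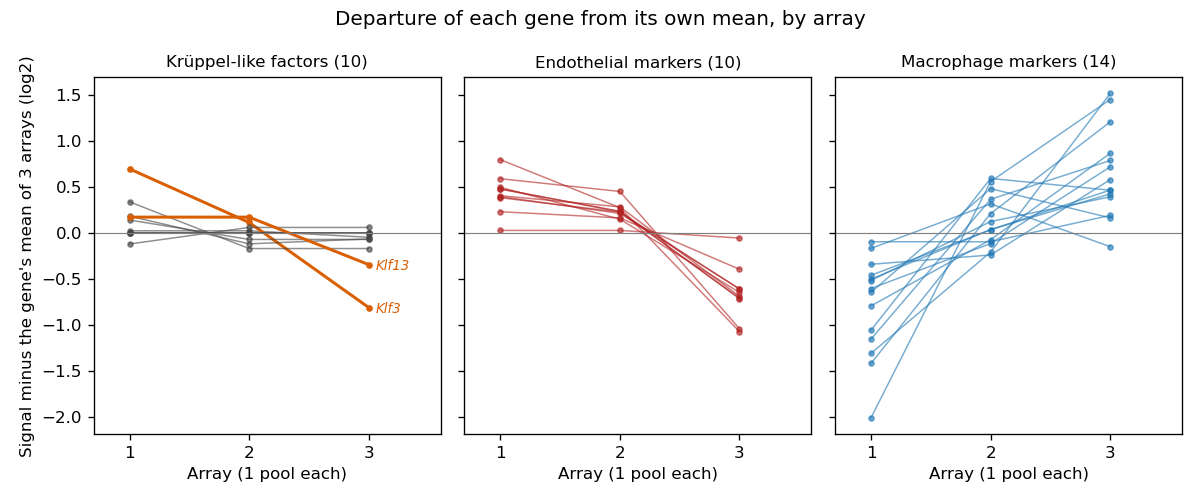
Log2 signal minus the gene's own mean of 3 arrays (y axis) in each array (x axis), with a line per gene, for the 10 Krüppel-like factors, 10 endothelial markers and 14 macrophage markers. Klf3 and Klf13 (orange) are low in array 3, where all endothelial markers are lowest, while the other 8 factors lie closer to 0 in array 3.

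The Klf3 promoter is shown for the number of KLF motifs it holds. The line gives the 250 bases before the annotated start, 5′ to 3′, chr5:64803271-64803520 of GRCm38.p6 (RefSeq), plus strand, with the 5 matches to CACCC, on either strand, in capitals.
Klf3: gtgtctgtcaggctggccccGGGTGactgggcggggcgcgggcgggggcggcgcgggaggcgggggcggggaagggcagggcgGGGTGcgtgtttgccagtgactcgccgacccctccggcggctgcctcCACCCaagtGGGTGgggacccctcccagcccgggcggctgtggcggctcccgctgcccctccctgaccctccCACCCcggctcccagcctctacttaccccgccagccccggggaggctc
The motif is common: 57.5% of 32851 windows held at least 1 match, and 6 of the 8 windows of Krüppel-like factors did. The Klf7 window held 3 matches, those of Klf2, Klf9, Klf12 and Klf13 held 1 each, and those of Klf4 and Klf6 held none. The GC-rich SP motif GGGCGG was found in 35.7% of windows and likewise in 6 of 8, with 6 matches for Klf3 and 4 for Klf4. A KLF and an SP match shared 1 base in the Klf3 window and in the Klf13 window.

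Klf12, a repressor of the AP-2alpha gene, stood at 6.90, 6.60 and 6.65. Array 1 was over the filter level, array 2 under it and array 3 at it. The mean of 6.71 ± 0.16 (SD, n = 3) was 1.05 times the level, with an interval of 6.40 to 7.02 and no call (limma, adjusted p = 0.545; 0.891 with the pooled spread). Without array 1 the mean lay 0.02 log2 units under the level, still with no call.

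Klf9, Klf10 and Klf13 recruit the Sin3 corepressor. Klf9, which glucocorticoids and thyroid hormone induce, was at 7.07 in every array, 1.34 times the filter level (limma, adjusted p = 9.90e-05). Klf10, first found as an early gene of the TGF-beta response, was at 6.94 in every array, 1.23 times the level (limma, adjusted p = 0.000191). Both calls rest on a spread of 0 and were lost with the pooled spread (adjusted p = 0.18 and 0.37).

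Klf13, known as a regulator of the chemokine gene Ccl5 in T cells, stood at 6.64, 6.64 and 6.12. It was the one member under the level of 100 in every array, by less than 0.01 log2 units in arrays 1 and 2. The mean was 6.46 ± 0.30 (SD, n = 3), 0.883 times the level, with an interval of 5.89 to 7.04 that takes in the level and a limma adjusted p of 0.356 for lying below it. Without array 3 the 2 equal values left gave a call below (adjusted p = 2.05e-14) for a mean 0.007 log2 units under the level. Array 3, the low one, is again that in which the endothelial markers were lowest, and their part in this was not tested.

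Between arrays no single order held for all 10 genes. Array 1 was highest alone for 4 of them (Klf3, Klf4, Klf6 and Klf12) and array 3 lowest alone for 3 (Klf2, Klf3 and Klf13). Klf7 was lowest alone in array 1, Klf12 in array 2, and no gene of the 10 was highest in array 3 alone. Over all probe sets 28.3% were lowest in array 3 alone. Among probe sets with a mean of at least 100, which all of the 10 genes but Klf13 reach, the share was 48.6%. For the other orders no share over all probe sets was counted, so they are not read as traits of these genes.

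For this list and those that follow, the share over named genes was 41.6% above the level and 41.6% below. Of the 8 other Klf genes listed, 7 were measured and Klf18 was not analysed here. Klf11 (7.19 in every array), a relative of Klf10, Klf14 (7.60, 7.60 and 7.79), which is imprinted, and Klf16 (8.20, 8.08 and 7.87) were above the level. Klf1, the master regulator of red cell genes, lay below it at 5.71 in every array (limma, adjusted p = 2.17e-05), beside the erythroid markers given above. Klf8 (5.47, 5.41 and 5.47), another CtBP-dependent repressor, and Klf17 (5.17, 4.88 and 5.59) were also below. Klf15, a factor of podocytes, was on neither side (6.53, 6.53 and 6.80). With the pooled spread 2 of the 7 were above and the same 3 below, the call of Klf11 being lost.

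The SP factors bind the same kind of GC-rich sites, and 8 of 9 were measured. Sp1 (mean 7.78 ± 0.42, SD, n = 3), Sp3 and Sp4 (7.10 in every array) were above the level, Sp6, Sp8 and Sp9 below it, and Sp5 and Sp7 on neither side. Sp3 had a pair of probe sets, at means of 9.14 and 7.23, both above. Sp1 and Sp3 were above and Sp7 and Sp8 below with the pooled spread, while Sp4, Sp6 and Sp9 lost their calls.

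**Figure D3:**
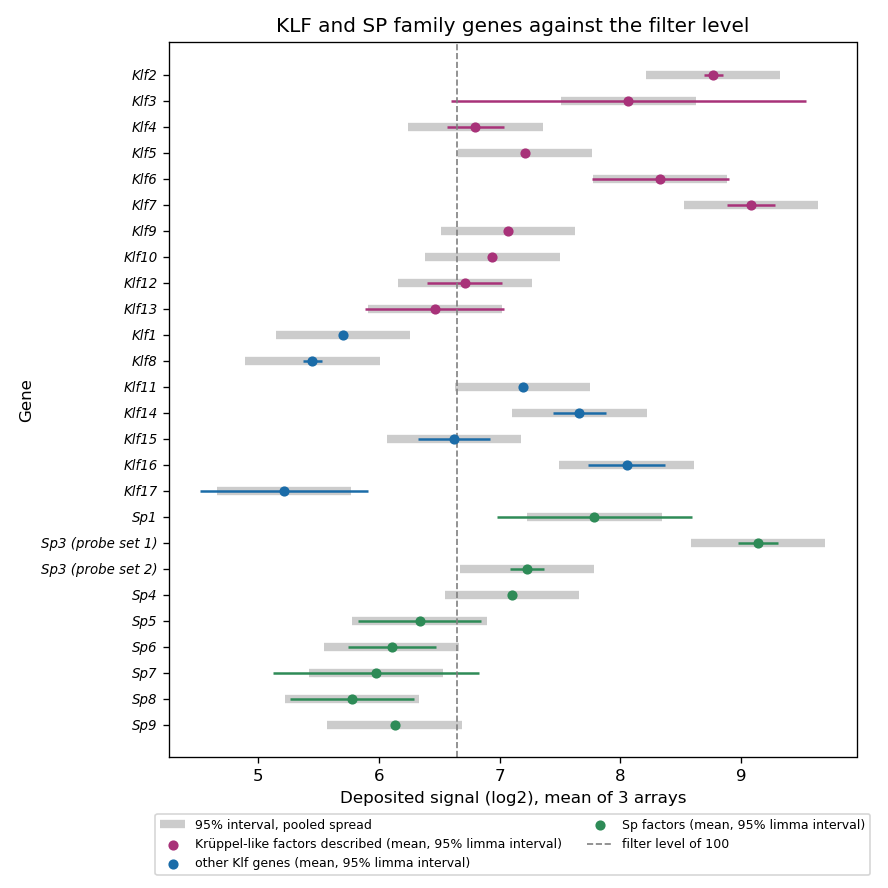
Mean log2 signal of 3 arrays (x axis) of KLF and SP genes (y axis, 1 row per probe set), with the limma 95% interval as a thin line, the interval from the pooled spread (half-width 0.56) as a grey bar, and the filter level of 100 as a dashed line. Klf2, Klf5, Klf6 and Klf7 clear the line with both intervals, Klf5 only just with the pooled one (lower end 6.65). Klf14, Klf16, Sp1 and both Sp3 probe sets also clear it with both, while Klf1, Klf8, Klf17 and Sp8 lie under it with both.

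Upstream of Klf2 and Klf4, blood flow acts through the channel Piezo1 and the MEKK3, MEK5 and ERK5 kinases (Map3k3, Map2k5 and Mapk7) on the MEF2 factors, and the CCM proteins with their receptor Heg1 restrain the pathway. Of 12 such genes, all measured, 11 were above the level (9 without array 3), with a list median of 7.97. Krit1, a CCM gene, stood at 8.28, 8.03 and 8.01. Heg1 had a pair of probe sets, both above, at means of 7.55 and 9.94. The 3 probe sets of Piezo1 disagreed, with means of 7.10, 7.66 and 7.90 and a call for the last only. Map3k3 stood at 8.35, 8.24 and 7.02 and was on neither side (adjusted p = 0.0897), though above with the pooled spread (3.46e-05). In this list 9 of 12 genes were lowest in array 3, the array low in endothelial markers, where the list mean was 7.83, beside 8.55 and 8.36 in arrays 1 and 2. Mef2c, named above for its likeness to Klf3, is one of these genes. Of all probe sets with a mean of at least 100, 48.6% were lowest in array 3 alone.

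Corepressors and coactivators that KLF proteins recruit were measured for 7 of 9 and 4 of 4 genes. Of the corepressors 6 were above the level, among them Ctbp2 (7.77, 7.70 and 7.70) and Sin3a (8.64, 8.62 and 8.26). Ctbp1, the partner through which Klf3 represses, stood at 8.45, 7.92 and 7.14 and was on neither side (adjusted p = 0.0761; 5.52e-05 with the pooled spread). Like Klf3 it was lowest in array 3, as were 48.6% of probe sets with a mean of at least 100. The acetyltransferases Ep300 (8.91, 8.45 and 7.86), Crebbp (9.76, 9.76 and 9.64), Kat2a and Kat2b were all above, a count of 4 that became 2 without array 3. Of 5 ubiquitin ligases, enzymes of the group that degrades KLF proteins, 4 were above the level. Wwp1, which acts on Klf2 and Klf5, was at 8.82 in every array, Fbxw7 had probe sets at 7.94 and 10.07, and Smurf1 (7.51, 7.29 and 6.90) was on neither side (adjusted p = 0.0685).

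Genes known to follow KLF2 or KLF4 in cultured endothelium were taken as a pair of lists, those the factors raise and those they lower. Of 7 genes of the raised list 5 were above the level and 2 on neither side, and 5 were above with the pooled spread (Nos3 in place of Ptgds), with a list median of 7.61. Thbd, the anticoagulant thrombomodulin, stood at 8.06, 7.93 and 7.93. Nos3, the endothelial nitric oxide synthase, stood at 7.80, 7.70 and 7.08 and just missed a call (adjusted p = 0.0503; 0.00327 with the pooled spread), and Nppc, the C-type natriuretic peptide, stood at 6.37, 6.37 and 6.78. Tek is on this list and also drives the transgene used for the sort, so its place over the level (11.12, 10.97 and 10.13) is not independent of the sort.

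Of 9 measured genes of the lowered list 4 were above the level and 5 below, with a list median of 6.54. The adhesion molecule Sele (6.53, 6.53 and 6.55), tissue factor F3 (5.39 in every array), Angpt2, Ace and Adm were below. Edn1, the vasoconstrictor endothelin, (6.73, 6.82 and 6.73), Vcam1 (7.05, 7.05 and 7.35) and the chemokine Ccl2 (6.92 in every array) were above by less than 0.6 log2 units, and Kdr, the VEGF receptor, stood at 10.69, 10.17 and 8.82. With the pooled spread 1 gene was above (Kdr) and 1 below (F3), and without array 3 the count above was 2. These are levels in a single cell group, and no change of a target with a Krüppel-like factor could be measured.

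Klf2, Klf4, Klf6 and Klf10 are themselves early response genes in many cell types, so 17 other genes of that kind, of which 16 were measured, were set beside them. Of these 10 were above the level and 4 below, with a list median of 7.10. Fos (6.40, 6.37 and 6.37), Junb (6.56 in every array), Egr2 (6.57, 6.57 and 6.60) and Nr4a1 were below, Fosb (6.57, 6.57 and 6.72) and Atf3 on neither side, and Jun (9.01, 8.94 and 8.25) above. With the pooled spread 8 were above and 8 on neither side. The list means were 7.32, 7.29 and 7.31 in arrays 1, 2 and 3, and the part of the dissociation in these levels was not tested.

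**Figure D4:**
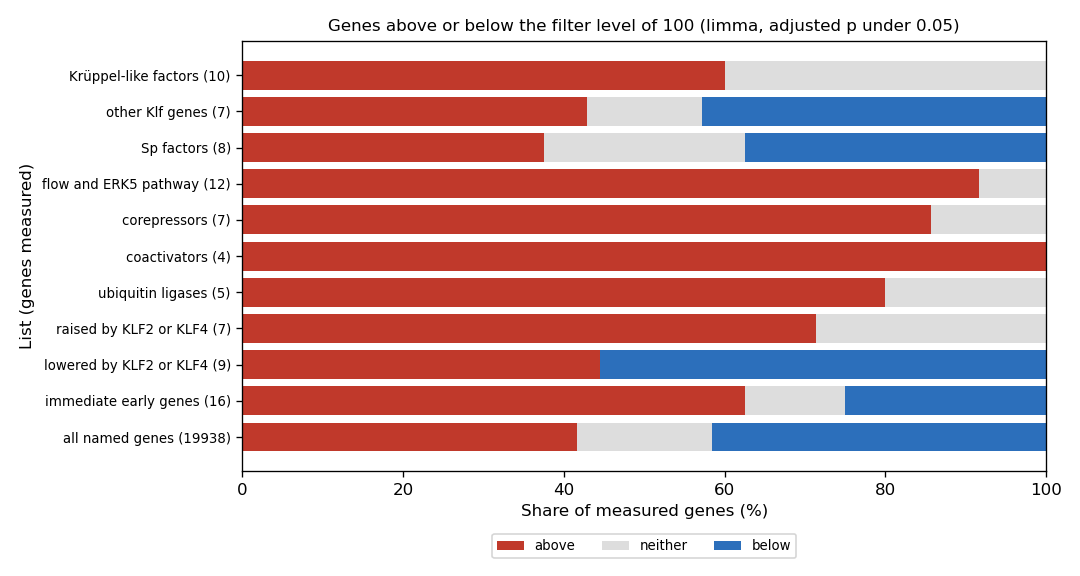
Share of measured genes (x axis, percent) above, on neither side of, or below the filter level of 100 by the limma test at an adjusted p of 0.05, for the Krüppel-like factors, the related lists and all named genes (y axis, number of genes in brackets). Of the Krüppel-like factors 60% were above, beside 41.6% of named genes, and the 12 flow and ERK5 pathway genes had 91.7% above.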

How the data were processed

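The authors' deposited table holds log2 signals of 35557 probe sets on 3 arrays, made with Affymetrix Expression Console according to the submitters' processing notes. For the summarization algorithm of the table, nothing was given in the sources used here, and RMA in GeneSpring is what the study describes for its analysis. Values were used as deposited, and the number of arrays limits their precision.

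Probe sets were named from the platform annotation: 21789 had 1 symbol, 1621 had several and 12147 had none, and symbols were updated through a RefSeq table (21698 matched). Probe sets of a gene were averaged on the log2 scale, and a gene was above the level if any probe set was, below if all were. Levels were tested with limma 3.58.1 (R 4.3.3), an intercept-only fit with eBayes. Python 3.11.15, numpy 2.4.6, pandas 2.3.3 and matplotlib 3.10.9 were used. Alternatives were levels of 50, 200 and 86.4 (the 95th percentile of 1205 olfactory and vomeronasal receptor probe sets), a pooled spread, an intensity trend, quantile normalization, a common median, named probe sets only, probe sets under 32 left out, and each array left out. Pooled and leave-one-out counts of the lists were in part added after seeing the data.

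The genes and lists were chosen with earlier results of these data known. Named were all 10 genes, the first 3 measured genes of each list with up to 3 that went against its majority, and the 3 genes most like a factor spanning 1 log2 unit. Further genes were named after their values were seen.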

Additional observations from a re-analysis of the deposited data

How the results depend on the processing

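The number of Krüppel-like factors above the filter level was 10 at a level of 50 and 2 at a level of 200 (Klf2 and Klf7), against 6 at 100, and 5 to 7 without 1 array. The number below was 6 at a level of 200 and 0 to 1 without 1 array. Over all probe sets, those above numbered 21712 at a level of 50, 5510 at 200 and 7712 to 11714 without 1 array, and those below 5305 at 50, 22955 at 200, 8906 over named probe sets, 8288 with dim probe sets left out and 8737 to 15197 without 1 array. The mean minus the level changed sign at a level of 200 for Klf4 (-0.844), Klf5 (-0.435), Klf9 (-0.576), Klf10 (-0.703) and Klf12 (-0.931), at a level of 50 for Klf13 (0.821), at the receptor level for Klf13 (0.032), and without array 1 for Klf12 (-0.022, with 0.128 the highest without 1 array). Klf3 was called above at the receptor level (adjusted p = 0.0485) and Klf4 too (0.0252), and Klf6 lost its call at a level of 200 (0.0944). Changes at another level follow from moving the level, and the cause of the others was not tested. Named probe sets only, dim probe sets left out and an intensity trend kept the count of 6. Each of the 10 genes has 1 probe set, so taking the brightest gave the same values. No paired analysis was possible because there is a single group. A difference from the level under about 0.56 log2 units lies within the pooled interval.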
